A study of Mus musculus with 22 samples.

Results

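Nupr1, Trib3, Ddit3, Asns, Chac1, Atf4, Atf5, Fgf21 and Sesn2 are 9 genes of the integrated stress response and its surroundings, 9 of the 37991 genes in the RNA-seq tables. They were chosen by their RNA counts in mutant and wild-type E14.5 livers, with the result for Nupr1 already known, so the RNA values of all 9 in the comparison of genotypes are given here as a description, and no test of them is read as a result. Methylation at their transcription start sites was not part of that choice and was tested.

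The mice were of the inbred FVB/NJ strain. All of them, controls included, were homozygous for a multi-copy GFP transgene driven by the human alpha-globin promoter with the HS-40 enhancer. Wild-type embryos from heterozygous matings were compared with embryos homozygous for MommeD28, an ENU-induced allele of Rlf that the study describes as null, Rlf being a gene for a widely spaced zinc finger protein. RNA-seq was made from 3 wild-type and 3 mutant livers at E14.5, and whole genome bisulphite sequencing (WGBS) from E10.5 whole embryos and from livers at E14.5 and E18.5, each with 2 wild-type and 2 mutant samples, 12 libraries in all. The mutation is carried in the germ line, so every cell type of an embryo had it. The RNA-seq libraries held 12928313 to 14621004 counts. WGBS depth was 15.3 to 17.4 reads per CpG in E10.5 embryo, 30.2 to 34.1 in E14.5 liver and 16.6 to 17.1 in E18.5 liver, so the E14.5 methylation levels are the most precise. Over the windows of Nupr1 and Fgf21 the depth was 13.7 to 42.0 reads per CpG.

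The integrated stress response starts when a kinase that senses amino acid shortage, misfolded protein, viral RNA or haem shortage phosphorylates the translation factor eIF2 alpha, which lowers general protein synthesis and raises translation of the transcription factor Atf4. Atf4 and its partners then switch on genes for amino acid supply, tRNA charging, redox balance and, when stress lasts, cell death. In liver the same programme drives secretion of the hormone Fgf21, and the haem-sensing kinase gives it a known role in red cell precursors, which are abundant in fetal liver. Many of its target genes carry a C/EBP-ATF composite element (CARE), a site bound by Atf4 together with a C/EBP protein.

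The starts of 3 members are shown first, because they hold the main contrast within the set: Nupr1 and Fgf21 have few CpGs before their start and were methylated above 50% over the 1 kb on each side of it, whereas Trib3 has many and was low. Each line gives the 300 bases before the start in the mm9 build, on the gene's own strand from 5′ to 3′, with each CpG in capitals. All 3 genes lie on the minus strand. The stretches are at chr7:133769191-133769490 (Nupr1), chr7:52870861-52871160 (Fgf21) and chr2:152169769-152170068 (Trib3). That of Nupr1 lies inside the annotated gene, since a longer transcript without a coding annotation starts further upstream.
Nupr1: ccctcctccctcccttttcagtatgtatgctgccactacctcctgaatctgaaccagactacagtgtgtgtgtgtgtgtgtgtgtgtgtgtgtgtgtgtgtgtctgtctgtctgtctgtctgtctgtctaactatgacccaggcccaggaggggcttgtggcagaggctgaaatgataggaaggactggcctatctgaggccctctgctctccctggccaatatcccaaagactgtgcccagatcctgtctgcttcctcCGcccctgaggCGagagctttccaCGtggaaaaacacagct
Fgf21: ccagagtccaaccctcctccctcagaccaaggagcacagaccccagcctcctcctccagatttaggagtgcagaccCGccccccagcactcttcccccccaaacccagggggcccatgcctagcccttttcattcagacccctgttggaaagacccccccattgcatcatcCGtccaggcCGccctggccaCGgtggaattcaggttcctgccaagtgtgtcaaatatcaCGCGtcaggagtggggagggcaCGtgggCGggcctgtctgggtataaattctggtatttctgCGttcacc
Trib3: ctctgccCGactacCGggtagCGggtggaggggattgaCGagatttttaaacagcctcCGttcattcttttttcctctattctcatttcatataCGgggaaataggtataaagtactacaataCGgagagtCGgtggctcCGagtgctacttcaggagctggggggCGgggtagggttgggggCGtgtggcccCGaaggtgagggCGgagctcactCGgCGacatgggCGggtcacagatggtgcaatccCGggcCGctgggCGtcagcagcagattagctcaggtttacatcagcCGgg
The 300 bases hold 3 CpGs at Nupr1, 9 at Fgf21 and 20 at Trib3.

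The set was also searched for the letters TGATGNAA, the core of the CARE, on both strands in the 1000 bases before each start. The letters occurred before 5 of the 9 members, against 13.1% of 22365 promoters searched in the same way. The members are genes of this response, many of whose targets carry the element, so the comparison is a description. The 5 were Trib3, Ddit3, Chac1, Sesn2 and Fgf21, the last with 2 matches. One match for each is shown, because the letters are the core of the element through which Atf4 acts on many of its targets; Asns, also a target of Atf4, and Nupr1 had no match in these bases. Each is on the gene's strand in mm9, with the 8 matching bases in capitals; all 5 matches lie on the opposite strand and so read as the reverse complement.
Trib3: ttagctcaggtTTACATCAgccggg
Ddit3: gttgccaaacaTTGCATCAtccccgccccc
Chac1: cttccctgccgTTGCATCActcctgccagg
Sesn2: gtgaagtcccgTTTCATCAcgcagccctaa
Fgf21: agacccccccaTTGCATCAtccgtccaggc
Counted from the start, the matches begin at -14 in Trib3 (chr2:152169769-152169793, minus strand), -282 in Ddit3 (chr10:126727537-126727566, plus strand), -180 in Chac1 (chr2:119176774-119176803, plus strand), -259 in Sesn2 (chr4:132066657-132066686, minus strand) and -139 in Fgf21 (chr7:52870981-52871010, minus strand). The core of the cAMP response element, TGACGT, was found before Nupr1 (at -624) and Chac1 (at -950), against 14.4% of promoters. It does not overlap the first motif in either gene. A match is a description of the letters and not a bound site.

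The expression of the 9 genes spanned a wide range in E14.5 liver. Levels between genes are compared per length, as RPKM (reads per kilobase of annotated exon, scaled to library size), and values between livers as CPM (counts scaled to library size). In wild-type livers Atf4, the central transcription factor, stood highest at 193 RPKM ± 8.88 (SD, n = 3). Asns, the enzyme that makes asparagine, followed at a mean of 135 RPKM and Atf5, a transcription factor related to Atf4, at 74.5 RPKM. Ddit3 (Chop), the transcription factor of lasting stress, had 9.22 RPKM and Sesn2, a sestrin that restrains mTORC1 signalling, 7.81 RPKM. The lowest were Trib3, a pseudokinase that restrains Atf4 and Akt, at 1.12 RPKM, Chac1, which degrades glutathione, at 0.661 RPKM, and Nupr1, a small stress-induced nuclear protein, at 0.408 RPKM. Fgf21 had no read in any wild-type liver. The steps from Asns to Atf5 and from Atf5 to Ddit3 are each larger than the spread between livers, whereas Ddit3 and Sesn2, and Trib3, Chac1 and Nupr1, are close neighbours.

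The members with the largest differences between genotypes stood at the bottom of this order. Nupr1 had 1.37, 0.859 and 0.772 CPM in wild-type livers 1, 2 and 3 and 1.94, 3.75 and 2.81 CPM in mutant livers 1, 2 and 3. All 3 mutant livers lay above all 3 wild-type livers, and mutant liver 2 was the highest. The difference was 1.51 ± 0.31 (log2 fold change ± SE, edgeR). These levels rest on few reads, 11 to 18 in wild-type and 25 to 52 in mutant livers, and the exact Poisson 95% interval, which covers counting error only, ran from 38.8 to 68.2 reads in mutant liver 2 and from 16.2 to 36.9 in mutant liver 1.

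Trib3 had 1.75, 3.37 and 2.03 CPM in the wild-type livers and 5.20, 7.50 and 3.16 CPM in the mutants. The groups overlapped, because mutant liver 3 lay below wild-type liver 2. The log2 fold change was 1.13 ± 0.32. Mutant liver 2 was again the highest, with 104 reads against 45 in mutant liver 3, and their intervals, 85.0 to 126 and 32.8 to 60.2 reads, did not meet.

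Chac1 had 0.839, 1.92 and 0.491 CPM in the wild-type livers and 1.86, 1.30 and 1.97 CPM in the mutants. The groups overlapped here too, with wild-type liver 2 above mutant liver 2, and the log2 fold change was 0.63 ± 0.40. No Chac1 value rests on more than 29 reads. Without wild-type liver 2 the log2 fold change of Chac1 was 1.36, while that of Nupr1 stayed between 1.26 and 1.79 and that of Trib3 between 0.78 and 1.47 whichever liver was left out.

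The abundant members lay close together in the 2 genotypes. Atf4 had 350, 329 and 320 CPM in wild-type and 340, 347 and 359 CPM in mutant livers, a log2 fold change of 0.07 ± 0.06. Its protein is controlled largely at translation, which RNA counts do not measure. Asns, a classical target of Atf4, had 352, 404 and 350 CPM against 390, 400 and 367 CPM (0.06 ± 0.07).

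Atf5 had 143, 167 and 136 CPM in the wild-type livers and 138, 157 and 140 CPM in the mutants, a log2 fold change of -0.03 ± 0.08. Ddit3 had 17.2, 15.4 and 14.8 CPM against 18.8, 17.7 and 18.3 CPM, so the mutant livers lay above the wild-type livers without overlap, but by only 0.21 ± 0.10. Sesn2 had 26.9, 29.8 and 24.7 CPM against 31.4, 31.6 and 27.1 CPM (0.14 ± 0.09), with overlapping groups. Ddit3, Atf5 and Sesn2 overlap other annotated genes and reads were counted without strand, so reads in the overlaps may be missing from their counts or belong to those genes.

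Fgf21 gave 1 read in all 6 livers, in mutant liver 1, and no read in the other 5. A count of 0 allows up to 3 reads in such a library as a one-sided 95% limit, and the two-sided exact Poisson interval used above reaches 3.69 reads, so a difference between genotypes was not detectable at this depth. Fgf21 was the only member that did not pass the filter on low counts.

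**Figure D1:**
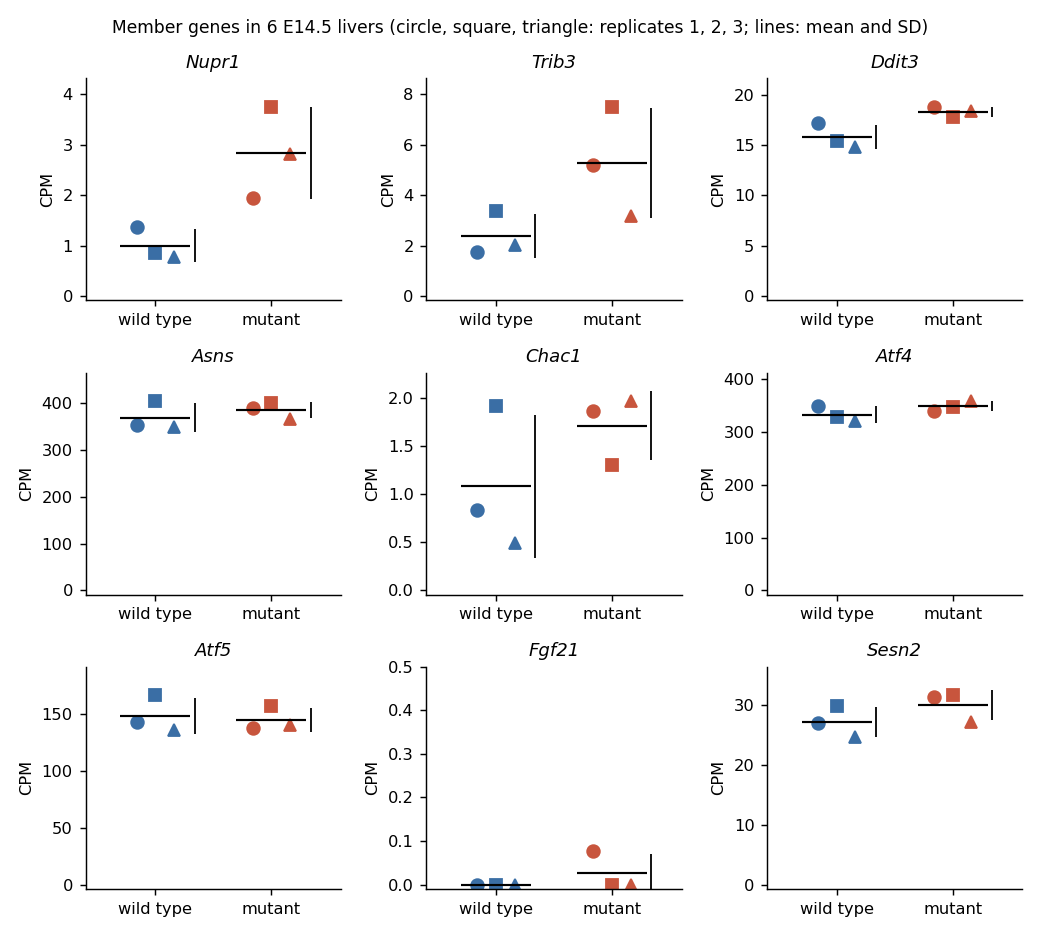
CPM of the 9 genes in the 3 wild-type and 3 mutant E14.5 livers, one panel per gene with its own y axis from 0, where circle, square and triangle are replicates 1, 2 and 3, the horizontal line is the group mean and the vertical line spans 1 SD to each side. Nupr1 is higher in every mutant liver than in any wild-type liver, Trib3 and Chac1 overlap, and Fgf21 has its 1 read in mutant liver 1.

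Of the 14183 genes tested, 197 (1.39%) differed between genotypes by edgeR's quasi-likelihood test at an adjusted p under 0.05. Nupr1 was the 1 member among these 197, of 8 members that entered the fit. The livers of the 2 genotypes did not overlap, in either direction, in 20.3% of genes and in 2 members, Nupr1 and Ddit3, with the mutants above in both. These values belong to the contrast that chose the members, so nothing is read from the counts. The median log2 fold change was 0.18 over the 8 members and -0.00 over all genes tested. With the replicate number as a block 460 genes passed. Rlf itself was at 70.4 ± 1.73 CPM in wild-type and 74.6 ± 6.28 CPM in mutant livers (SD, n = 3; log2 fold change 0.08 ± 0.07, adjusted p = 0.646), so the RNA level of this ENU allele does not check the labels.

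The spread between livers of one genotype was measured as the SD of log2(CPM + 0.5). Trib3 spread by 0.57 between the mutant livers, more than 99.4% of tested genes, and by 0.41 between the wild-type livers, more than 97.0% of them. Nupr1 spread by 0.40 between mutant livers (percentile 97.0) and by 0.30 between wild-type livers (percentile 91.8). Chac1 showed the opposite order, with 0.65 between wild-type livers and 0.25 between mutant livers.

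The other 5 tested members spread by 0.04 to 0.12 between mutant livers and by 0.07 to 0.15 between wild-type livers, against medians of 0.10 and 0.11 over all tested genes. The spread between mutants was therefore above that between wild types in 2 of 8 members, Nupr1 and Trib3, compared with 46.9% of all tested genes. Nupr1, Trib3 and Chac1 are the 3 tested members with the fewest reads, and low counts carry more counting error. In the mutant livers the Poisson SD was 9.81 to 14.9% of the count for Trib3 and 13.9 to 20% for Nupr1. The part of counting error in the spread was not tested. The 3 also did not share an order among the livers: mutant liver 2 was the highest of the mutants for Nupr1 and Trib3 and the lowest for Chac1.

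**Figure D2:**
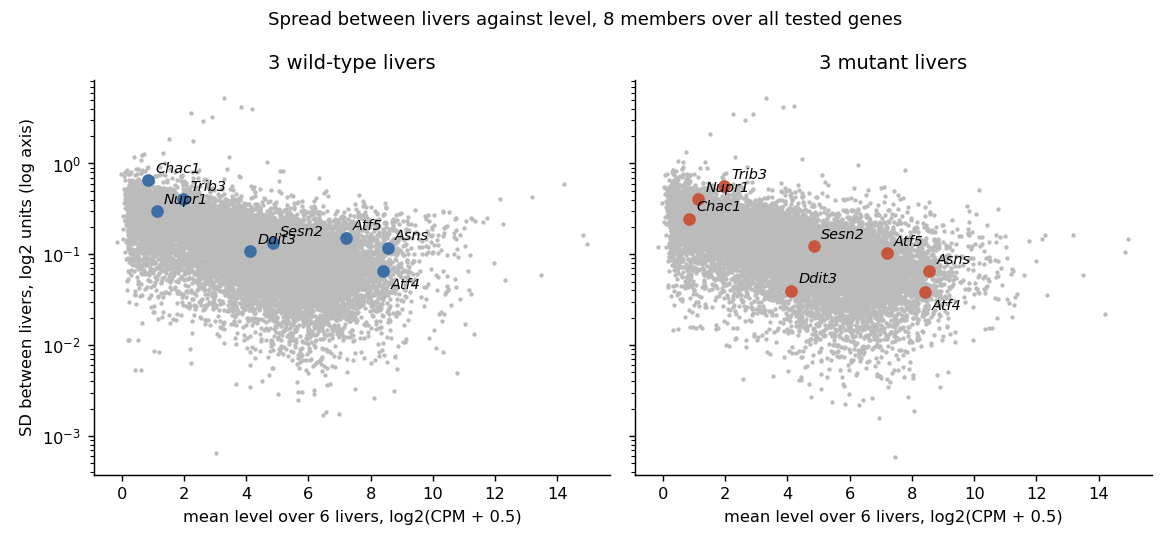
SD of log2(CPM + 0.5) between the 3 wild-type livers (left) and between the 3 mutant livers (right), on a log axis, against the mean level over the 6 livers, with the 8 tested genes as labelled points and all tested genes in grey. Trib3 and Nupr1 stand at SDs of 0.57 and 0.40 between mutants and of 0.41 and 0.30 between wild types, at a low level where grey points also reach higher SDs.

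Over the 6 livers, the genes most like Nupr1 by Pearson's r of log2(CPM + 0.5), among 13626 tested genes with a mean of at least 1 CPM, were Asap3 (r = 0.991), Gimap4 (0.987), Mospd3 (0.984), Lgals8 (0.980) and Trim15 (0.980). Among the members, r with Nupr1 was 0.821 for Ddit3, 0.779 for Atf4, 0.703 for Trib3, 0.521 for Sesn2, 0.429 for Chac1, 0.320 for Asns and 0.031 for Atf5. The points are 6 livers of 2 genotypes, and any gene that is higher in mutants shares part of its order with Nupr1. These values are a description.

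The wider pathway was followed in 7 lists of other genes, 106 in all, of which 104 were tested. The lists were written from general knowledge of the pathway but with earlier results of these data known, so their counts and shares are a description. By edgeR's test, adjusted over all genes, 1 gene was called, Slc1a4, and it rose. That is 0.962% of the list genes, below the 1.39% of all genes. At an unadjusted p under 0.05, 17 were higher and 4 lower, 20.2% of the list genes against 14.6% of all genes tested. Slc1a4, a transporter of neutral amino acids and a known target of Atf4, rose from 38.1 ± 2.99 CPM in wild-type to 51.3 ± 4.23 CPM in mutant livers (SD, n = 3), a log2 fold change of 0.43 ± 0.08 (edgeR, adjusted p = 0.0319), and its groups did not overlap. Leaving out 1 liver at a time moved the number of list genes called to between 0 and 3, and it was 0 without wild-type liver 1, wild-type liver 3, mutant liver 1 or mutant liver 2. With the replicate number as a block 5 were called: Slc1a4, Mthfd2, a mitochondrial folate enzyme, Vegfa, the endothelial growth factor, and Herpud1, which serves degradation of misfolded proteins, were higher and Fabp1 was lower.

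The list of amino acid supply genes, 19 tested, held Slc1a4, and also Mthfd2, which was called with the replicate block. The list had a median log2 fold change of 0.12, against -0.00 over all genes, with 7 genes higher and 1 lower at an unadjusted p under 0.05. Its most abundant members per length, the serine pathway enzymes Psat1 and Shmt2, did not pass, with log2 fold changes of 0.10 ± 0.07 and 0.11 ± 0.08. In the list of stress effectors, 14 tested, none passed by edgeR with genotype alone. At an unadjusted p under 0.05, 6 were higher and 1 lower, and the median of the list was 0.18. Vegfa (0.48 ± 0.11) and Herpud1 (0.27 ± 0.06), called with the replicate block, belong to this list. With genotype alone each had an adjusted p of 0.0557 (edgeR). Its most abundant members per length were Eif4ebp1, an inhibitor of cap-dependent translation, with a log2 fold change of 0.18 ± 0.10, and Sqstm1, a receptor of autophagy, with 0.17 ± 0.07.

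Among 17 aminoacyl-tRNA synthetases none passed by edgeR, 2 were higher at an unadjusted p under 0.05, and the median was 0.06. The most abundant, Nars and Hars, which charge the asparagine and histidine tRNAs, had 0.19 ± 0.07 and 0.01 ± 0.06. The 15 regulators of the response, which are the eIF2 alpha kinases and phosphatase subunits, eIF2 alpha itself, the subunits of its exchange factor eIF2B, and the transcription factors Atf3, Cebpb and Cebpg, held no call and no gene at an unadjusted p under 0.05, with a median of -0.02. Ppp1r15a, which directs dephosphorylation of eIF2 alpha, had -0.14 ± 0.14, and Eif2ak1, the haem-sensing kinase, -0.07 ± 0.08.

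Neighbouring programmes showed no call by edgeR either, apart from Fabp1, which was called lower in the fit with the replicate block. The 19 genes of endoplasmic reticulum stress, chaperones together with the sensors and factors Xbp1, Atf6 and Ern1 and the degradation genes Sel1l and Edem1, had a median of 0.04, with Calr at -0.02 ± 0.06 and Hspa5 (BiP), the marker of unfolded protein stress, at 0.04 ± 0.06, and 2 were higher at an unadjusted p under 0.05. The 10 p53 targets had a median of 0.05 (Bax 0.09 ± 0.07, Ccng1 0.02 ± 0.12) and the 10 tested PPAR alpha targets, which include the fasting genes that respond together with Fgf21, a median of -0.04 (Fabp1 -0.40 ± 0.14), each with 1 gene lower at an unadjusted p under 0.05. Mutant liver 2, the highest for Nupr1 and Trib3, was also the highest for the p53 targets, which summed to 512 CPM there, against 383 and 399 CPM in mutant livers 1 and 3 and 400.0 to 431 CPM in the wild-type livers. Cdkn1a (p21), the cell cycle inhibitor induced by p53, had 803 reads in mutant liver 2 and 157 and 277 in the other mutants, against 174 to 397 in the wild types. Ccng1, Bax, Zmat3, Trp53inp1, Phlda3 and Eda2r also had the most reads of the mutants in liver 2. Over all tested genes, mutant liver 2 was the highest of the mutants, in CPM, in 34.6%. The list was not uniform: in mutant livers 1, 2 and 3, Mdm2 had 777, 831 and 883 reads, Sesn1 690, 712 and 783, and Pmaip1 40, 39 and 46. What set mutant liver 2 apart was not tested. Without mutant liver 2 the log2 fold change was 1.26 for Nupr1 and 0.78 for Trib3.

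**Figure D3:**
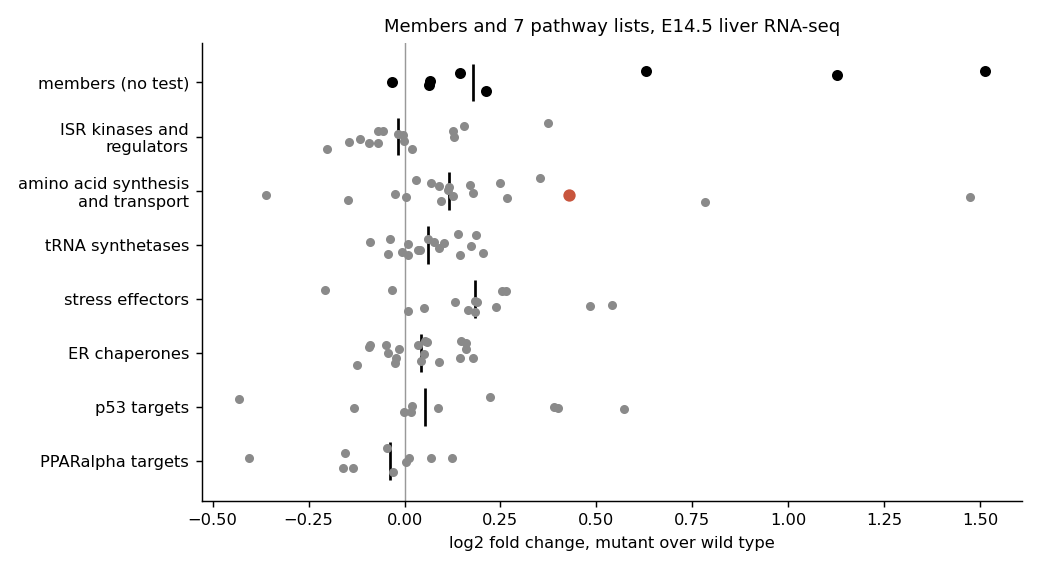
Log2 fold change, mutant over wild type, of each tested gene, with a row for the 8 tested members (black, no test) and a row for each of the 7 pathway lists (grey), where the vertical bar is the row's median and the red point is the called gene. Slc1a4 is the 1 called list gene, at 0.43, and the list medians run from -0.04 to 0.18.

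Cell type markers were set beside these results in 7 lists, 61 of 62 genes tested. Hepatoblast markers summed to 56947 to 67599 CPM in wild-type and 69493 to 80625 CPM in mutant livers, with Alb and Afp abundant in every library, and erythroid markers to 29834 to 54838 against 36958 to 40231 CPM, so the tissue was fetal liver as labelled. No gene of these 2 lists passed by edgeR, with 2 and 1 genes at an unadjusted p under 0.05. Of 12 hepatoblast genes 10 were higher in mutants (median log2 fold change 0.11), and of 11 erythroid genes 1 was (median -0.12). Of 8 neutrophil genes, 5 were called lower in mutants by edgeR, among them Camp (log2 fold change -0.89 ± 0.13, adjusted p = 0.00647), Ngp (-0.93 ± 0.16, 0.0143) and S100a8 (-0.67 ± 0.12, 0.0187). By sign alone, 1 of the 8 was higher in mutants, and the median log2 fold change was -0.68. The 8 genes summed to 858 to 1244 CPM in wild-type and 717 to 841 CPM in mutant livers. Of 7 megakaryocyte genes Pf4 was called higher (0.40 ± 0.07, adjusted p = 0.0143), with sums of 535 to 566 against 640 to 704 CPM. All 7 were higher in mutants, 6 of them at an unadjusted p under 0.05, with a median log2 fold change of 0.29. The lists for macrophages (629 to 672 against 639 to 651 CPM), endothelium (270 to 298 against 299 to 352 CPM) and mesenchyme (762 to 1007 against 832 to 1262 CPM) held no call by edgeR, with 3, 4 and 3 genes at an unadjusted p under 0.05. The part of cell make-up in the values of Nupr1, Trib3 and Slc1a4 was not tested, and in whole liver fewer cells of a type and less RNA per cell cannot be told apart.

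Methylation within 1 kb of the starts divided the 9 genes into 2 classes. In wild-type E14.5 liver the window of 1 kb on each side of the start was methylated above 50% at Nupr1 and Fgf21 and below 10% at the other 7. The place of Nupr1 depended on the width of the window. Within 500 bp it was at 30.4 and 36.5% in these livers, and Fgf21 at 68.5 and 71.2%. Over 21075 windows, 27.8% were above 50% and 51.1% below 10%. The 2 methylated windows were also those with the fewest CpGs: the ratio of observed to expected CpGs was 0.21 at Nupr1 and 0.16 at Fgf21, against 0.47 to 0.78 at the others and a median of 0.49 over all windows. Of the 6766 windows with a ratio under 0.3, 70.3% were above 50% in methylation. CpG content and methylation of these 2 members therefore lay together as in most CpG-poor windows.

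The Nupr1 window was at 71.3 and 74.0% in wild-type and 78.2 and 73.7% in mutant E10.5 embryos. In E14.5 liver it was at 58.1 and 64.3% against 62.8 and 58.5%, and in E18.5 liver at 66.4 and 60.8% against 72.6 and 61.1%. The genotypes overlapped in all 3 tissues. The mutant minus wild-type difference was 3.27 points in E10.5 embryo (edgeR, adjusted p = 0.706), -0.57 points in E14.5 liver (0.966) and 3.24 points in E18.5 liver (0.862).

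The Fgf21 window was at 69.8 and 68.9% in wild-type and 76.3 and 79.7% in mutant E10.5 embryos. It was the member with the widest gap between genotypes, 8.61 points without overlap, but it did not pass (edgeR, adjusted p = 0.20). With 2 libraries per genotype, a lack of overlap was common among the members in E10.5 embryo. Trib3, Chac1, Atf5 and Sesn2 also lay higher in both mutants, and Atf4 lower. In E14.5 liver the Fgf21 window was at 65.3 and 68.9% against 67 and 66.9%, and in E18.5 liver at 70.6 and 73.2% against 74.8 and 71.9%, with overlapping genotypes in both.

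The other 7 windows stayed low in every library. Chac1 lay between 6.18 and 10.2%, Trib3 between 2.92 and 8.43% and Sesn2 between 3.04 and 4.89%. Asns lay between 0.607 and 2.74%, Atf4 between 0.134 and 1.13%, Ddit3 between 0.225 and 1.12% and Atf5 between 0.0837 and 0.569%. Their genotype differences ran from -0.48 to 1.31 points.

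No member window passed in any tissue by edgeR's test. The background was 271 of 20017 windows in E10.5 embryo (1.35%), 0 of 21075 in E14.5 liver (0%) and 96 of 20374 in E18.5 liver (0.471%), counts that depended on the terms in the model, and at an unadjusted p under 0.05 it was 2435, 2343 and 1684 windows. Most windows in the genome were slightly higher in mutants, 70.9, 71.7 and 65.3% of them in the 3 tissues, and 6, 5 and 5 of the 9 members were. Each group had 2 libraries, which limits what can be detected at a single gene. The difference of the genotype effect between tissues was tested as an interaction and called no window, for E14.5 liver against E10.5 embryo (0 of 20004 windows, 861 at an unadjusted p under 0.05) and for E18.5 against E14.5 liver (0 of 20369, 672 at an unadjusted p under 0.05).

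**Figure D4:**
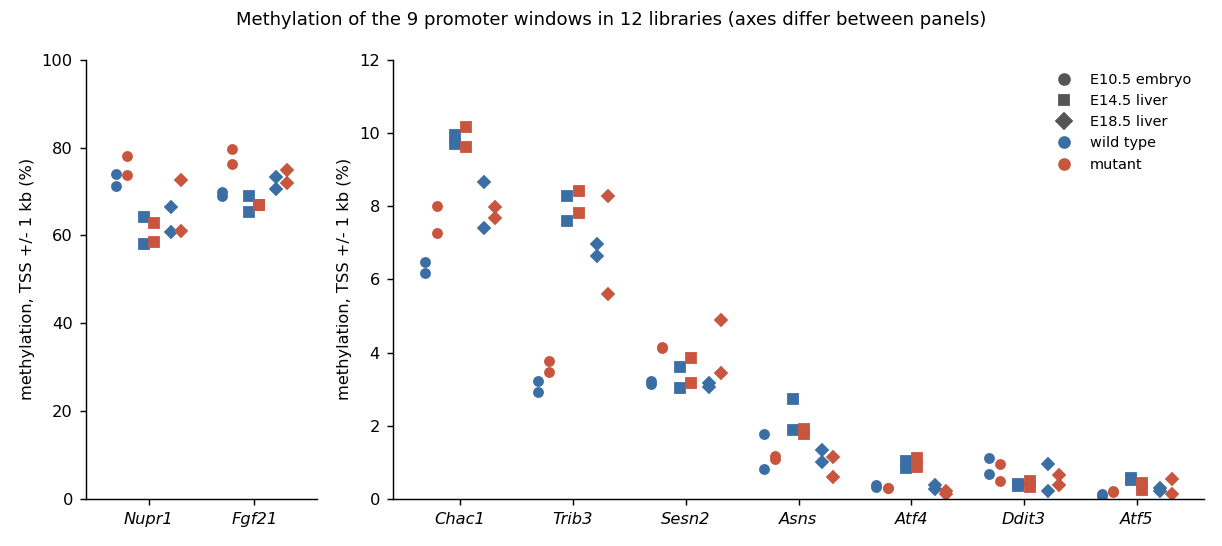
Methylation (percent of reads) within 1 kb of the start of each of the 9 genes in the 12 libraries, with tissue as the marker shape, genotype as the colour and a separate y axis for the 2 methylated and the 7 low genes. Nupr1 lies between 58.1 and 78.2% and Fgf21 between 65.3 and 79.7%, and the highest value of the other 7 is 10.2%, at Chac1.

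The starts were also compared between tissues. The comparison of E14.5 liver with E10.5 embryo used CpGs covered in all 8 libraries of the 2 tissues, and 13193 of 20004 windows (66.0%) passed by edgeR, so calls in this comparison are common. Of the members, 5 passed. Tissue and stage differed together and cannot be told apart. The E10.5 embryos were all male and number 1 of the E14.5 livers was male in each genotype.

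Nupr1 fell from 74.3 ± 2.87 to 60.8 ± 3.17% (SD, n = 4 each), a difference of -13.5 points (adjusted p = 2.28e-04), without overlap. Fgf21 fell from 73.7 ± 5.17 to 67.5 ± 1.40%, a difference of -6.22 points (adjusted p = 0.0264), but with overlapping libraries. That of Fgf21 was lost without either mutant E10.5 embryo (adjusted p of 0.0591 and 0.0883) or either mutant E14.5 liver (0.0702 and 0.0772). In wild-type libraries alone it was -1.98 points (adjusted p = 0.573).

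The low windows moved little in absolute terms. Trib3 rose from 3.34 to 7.44% (adjusted p = 9.43e-06) and Chac1 from 6.98 to 9.86% (0.00313), both without overlap. Ddit3 fell from 0.812 to 0.286% (0.00139), below the scale at which a few reads count. Asns, Atf4, Atf5 and Sesn2 did not pass.

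Between E14.5 and E18.5 liver none of the 9 windows passed by edgeR, against 4716 of 20369 windows (23.2%) and 8387 at an unadjusted p under 0.05. This background was unstable, with 1712 windows without wild-type E14.5 liver 1 and 4 in wild-type libraries alone. The smallest adjusted p among the members were 0.0531 for Atf4 and 0.0659 for Chac1. Nupr1 was at 60.8 ± 3.17 and 65.2 ± 5.55% (SD, n = 4 each), and Fgf21 at 68.6 ± 1.46 and 72.7 ± 1.80%. The E18.5 livers were all female and the E14.5 livers of both sexes, and the part of sex was not tested.

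Nearest the start the difference of Nupr1 between embryo and liver was larger. Within 500 bp, over 9 CpGs, methylation was 64.5 and 74.6% in wild-type and 71.2 and 61.9% in mutant E10.5 embryos, but 30.4 and 36.5% against 28.3 and 26% in E14.5 liver and 27.8 and 30.3% against 39.5 and 36.1% in E18.5 liver. Every embryo library thus lay above every liver library, with 61.9% as the lowest of the embryos and 39.5% as the highest of the livers. The male E14.5 livers, at 30.4 and 28.3%, lay below all 4 embryos, as the female ones did. The difference between E14.5 liver and E10.5 embryo within 500 bp was -37.8 points (edgeR, adjusted p = 1.62e-05).

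The 3 CpGs in capitals in the Nupr1 sequence above lie at -40, -29 and -16 from the start. In wild-type E10.5 embryos they were methylated in 75.0, 61.1 and 12% of reads, over 20, 18 and 25 reads. In wild-type E14.5 livers they were at 36.9, 7.58 and 2.82%, over 65 to 71 reads. In mutant E14.5 livers the same CpGs were at 20, 7.25 and 1.41%, so the CpG nearest the start was the least methylated in both genotypes. These reads are pooled over 2 libraries per group.

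The 9 CpGs in capitals at Fgf21 kept intermediate to high levels in liver. In wild-type E14.5 livers they ran from 26.3% at -108 to 85.9% at -67, and in wild-type E10.5 embryos from 25.6% at -108 to 86.8% at -41. In mutants the CpG at -108 was at 63.0% over 27 reads in E10.5 embryos, at 31.5% over 54 reads in E14.5 livers and at 50% over 28 reads in E18.5 livers, against 25.6, 26.3 and 27.3% in wild types. It was singled out after its values were seen, and single CpGs were not tested. At Trib3 none of the 20 CpGs exceeded 6.52% in any group of libraries.

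**Figure D5:**
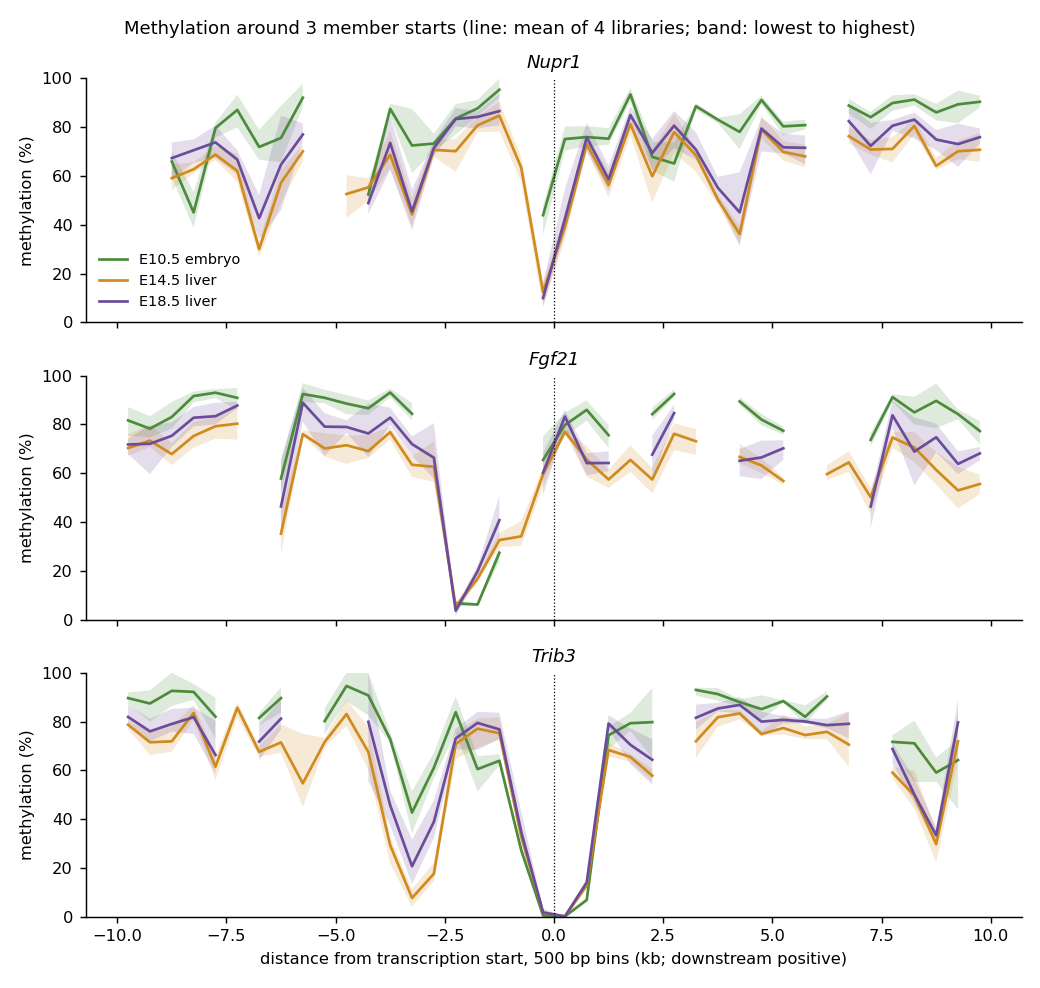
Methylation (percent of reads) in bins of 500 bp from 10 kb before to 10 kb after the start of Nupr1, Fgf21 and Trib3, with a line for the mean of the 4 libraries of each tissue, both genotypes together, a band from the lowest to the highest library, and gaps where a library had fewer than 2 covered CpGs in the bin. The dip at the start of Nupr1 is deeper in both liver stages than in E10.5 embryo, and the start of Trib3 is near 0 in all tissues.

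Tiles of 1 kb within 50 kb of the members were examined for genotype differences in E14.5 liver, where the libraries were deepest. Of 909678 tiles tested, 1116 (0.123%) were called, which required both a difference of more than 15 points and an adjusted p under 0.05, and in 1085 the mutants were higher. None of the 635 tiles near a member was called by both criteria in edgeR, while 3 (0.472%) had an adjusted p under 0.05 with a smaller difference. The share of all tiles that passed by adjusted p alone is not given here, so these 3 are a description. Without wild-type replicate 2, 3551 tiles were called, 2 of them near members. With all 4 libraries, an unadjusted p under 0.05 was found for 51 of the 635 tiles near a member (8.03%), against 9.0% of all tiles. Near members 65.4% of tiles were higher in mutants, against 73.9% of all tiles, and the median difference was 0.98 points near members and 1.87 points over all tiles.

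The closest to a call lay near Fgf21. The tile at chr7:52877001-52878000 (mm9), over an exon of Izumo1, a sperm protein needed for fusion with the egg, was at 29.0 and 32.6% in wild-type and at 47.5 and 40.9% in mutant livers, a difference of 13.4 points (edgeR, adjusted p = 0.0315), short of the 15 points required. A second tile at chr7:52882001-52883000, over exons of Izumo1 and Rasip1, differed by 12.6 points (adjusted p = 0.0375). Both were called when the required difference was 10 points.

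Near Nupr1 the most changed tile, in an intron of Cln3 at chr7:133720001-133721000, had a difference of -10.7 points, opposite to the general direction, and did not pass (adjusted p = 0.329). Near Trib3 one tile in an intron of Gm14164, at chr2:152189001-152190000, decreased by 3.54 points in mutants (adjusted p = 0.0440). The most changed tiles near the other members were higher in mutants by 6.02 points at Trib3 to 8.79 points at Chac1, with adjusted p from 0.352 to 0.673.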

How the data were processed

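The members and the gene lists were chosen with earlier results of these data known. Per the labels and the study's methods, polyA RNA of E14.5 liver was sequenced from one end, aligned with TopHat and counted per Ensembl gene with HTSeq without strand, and the authors deposited these raw counts. Reads that could belong to overlapping genes were dropped by the counter. For WGBS the authors aligned reads with Bismark and Bowtie2 to mm9 with FVB variants, removed duplicates, merged strands, and deposited methylated and unmethylated read counts per CpG. The authors also deposited the rounded percent methylation of each CpG, which was not used. Between 0.041 and 0.078% of cytosines of the spiked-in lambda DNA were unconverted. H3K4me1 ChIP-seq was not analysed here. Intervals cover counting error only. The study describes the RNA-seq replicates as independent biological replicates and the E14.5 WGBS livers as those of littermates.

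RNA counts were tested with edgeR 4.0.16 (R 4.3.3, TMM scaling, filterByExpr, quasi-likelihood test, Benjamini-Hochberg over all genes tested), with genotype alone in the model. Of the 6 livers, number 3 was female in both genotypes and numbers 1 and 2 were male. Deviations from the genotype means of same-numbered livers correlated at r = 0.140, 0.221 and 0.415 over 14183 genes. Same-numbered livers were also of the same sex, and differently numbered livers were not compared, so these values cannot tell pairing from sex. The labels number the replicates and do not state pairs, and the fit with genotype alone is the main one. The fit with the replicate number as a block is given beside results that it moved. DESeq2 1.42.0 was the other tool.

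Methylated and unmethylated counts were summed over CpGs with at least 6 reads in every library compared, within 1 kb of the start shared by most protein-coding transcripts (at least 5 CpGs) or in 1 kb tiles (at least 8 CpGs), and tested with edgeR with an intercept per library. Sequences were read from the NCBIM37 (mm9) genome. The RNA test of genotype and the test of genotype in E14.5 liver start windows were first run on simulated data. The tile, tissue, stage, interaction and block fits were not. Named genes are the 9 members, Rlf, the called and the 2 most abundant genes per length of each pathway list, the called (at most 3) and the most abundant of each marker list, the 5 genes most like Nupr1, and the called or most changed tiles. Other genes were named after their values were seen: Mthfd2, Vegfa, Herpud1, Cdkn1a and the further p53 targets, genes that only describe a list, the marker Alb, and tiles that passed the p threshold without the required difference. One gene that the rule names is not reported here.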

Additional observations from a re-analysis of the deposited data

How the results depend on the processing

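Each result was recomputed with 1 choice changed at a time. In E14.5 liver RNA-seq, 532 genes were called without a filter on low counts and 460 with the replicate block, against 197, and 66 to 224 when 1 liver was left out (66 without mutant replicate 1, 94 without wild-type replicate 1, 105 without wild-type or mutant replicate 3, 115 without mutant replicate 2). DESeq2 called 257. Of the pathway lists, 3 genes were called by DESeq2, 5 without a filter, 5 with the replicate block, 2 with sex as a covariate and 0 to 3 when 1 liver was left out, against 1.

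For start windows between genotypes in E10.5 embryo, 116 were called at a coverage minimum of 1 read, 62 within 500 bp and 793 with the replicate block, against 271, and 75 to 361 when 1 library was left out, with 75 without wild-type replicate 1. In E14.5 liver 951 were called with the replicate block and 0 under every other alternative run. In E18.5 liver 162 were called with the block and 34 to 123 when 1 library was left out (34 without wild-type replicate 2, 43 without mutant replicate 1, 51 without wild-type replicate 1). Same-numbered WGBS libraries correlated at 0.0563 in E10.5 embryo, 0.367 in E14.5 liver (where number 1 is male and number 2 female) and -0.0345 in E18.5 liver, so with 2 pairs the numbers were not taken to pair them. No member window passed between genotypes under any alternative, the block included.

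Between E18.5 and E14.5 liver 559 windows were called within 500 bp, 4 in wild-type and 0 in mutant libraries only, and 1712 to 4718 when 1 library was left out, against 4716. For E14.5 liver against E10.5 embryo the range was 12376 to 12765. Leaving out libraries here was chosen after seeing the data. The difference of Atf4 between embryo and E14.5 liver reversed within 500 bp, to -0.11 points from 0.13. That of Ddit3 was not called within 500 bp (-0.05 points), and that of Chac1 not in mutants alone (2.25 points).

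For tiles, 2778 were called above 10 points, 1120 with the replicate block and 768 to 3551 when 1 library was left out, the highest without wild-type replicate 2, against 1116. With that library left out 2 tiles near members were called. The causes were not tested.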
